A study of Mus musculus with 2 samples.

Results

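The genes described here are 10 ligands, receptors and effectors of transforming growth factor beta (TGF-beta) signalling in a mouse colorectal carcinoma model of lung metastasis. They were chosen by symbol, as every probe set that the platform annotation gives to Tgfb1, Tgfb2, Tgfb3, Inhba, Ltbp1, Tgfbr1, Tgfbr2, Tgfbr3, Smad3 or Tgfbi alone. This gave 27 of the 45037 probe sets on the array and 10 of its 18193 named genes. CMT93-PM1 is the tumour line recovered from lung: female C57BL/6 mice aged 6 weeks received CMT-93 cells by tail vein, lung tumours were taken 8 weeks later, and the recovered tissue was brought into culture, where cells of the host can persist. CMT-93, a rectal carcinoma line bought from a cell bank and labelled normal, is its uninjected parent. Both were grown in Dulbecco's modified Eagle's medium with 10% serum, penicillin, streptomycin and amphotericin B, and 6 µg of total RNA from each was labelled with biotin. The sources used here do not give how many mice or tumours CMT93-PM1 came from, or whether it is a clone. There was 1 array of each line, so each value below is a single measurement, no difference has a replicate error or a p-value, and effects of culture or of 1 hybridization cannot be told apart from those of the line.

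TGF-beta ligands are secreted in a latent complex, in which the ligand's own propeptide is tied to a latent TGF-beta binding protein that anchors it in the matrix. Once freed, the ligand binds the type II receptor, which recruits and phosphorylates the type I receptor, and the type I receptor phosphorylates Smad2 and Smad3, which enter the nucleus with Smad4. Activins, dimers of inhibin beta subunits, use receptors of their own and the same Smads, and follistatins hold activin away from its receptor. In intestinal epithelium the pathway is known as a brake on growth that many colorectal tumours lose, and in carcinoma cells that still respond it is known for inducing matrix and cytoskeletal genes.

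Signals are log2 values, and the difference CMT93-PM1 minus CMT-93 is called the log2 ratio. A probe set at or under the 40th percentile of its array, 4.59 log2 in CMT93-PM1 and 4.69 log2 in CMT-93, was treated as at the floor, and genes that reached neither floor count as not measured. A gene was represented by its probe set of highest mean signal, and a difference of 2-fold, a log2 ratio of 1, was the size counted. The medians of the arrays were 5.26 log2 in CMT93-PM1 and 5.36 log2 in CMT-93. Both floors lie below these medians, so a signal above the floor need not mean that a gene is expressed. The only spread these data hold for a gene is that between its probe sets, which is not an error between arrays. It was taken as the SD of the log2 ratio, among 5782 genes with several probe sets above both floors. This SD had a median of 0.17 and a 90th percentile of 0.49.

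The ligand genes Tgfb3 and Inhba were higher in CMT93-PM1, by 5.54-fold and 2.38-fold, and Tgfb1 was higher by 1 of its 2 probe sets. Of the 10 genes, 8 were measured, of which Tgfb3, Inhba and Tgfb1 were at least 2-fold higher in CMT93-PM1 and 0 were at least 2-fold lower. Of all 13332 measured genes, 4.42% were higher and 2.55% lower by that size. In a bulk sample, more cells that express a gene and more RNA per cell cannot be told apart. The receptor genes split, with Tgfbr2 higher and Tgfbr1 lower by less than 2-fold, while Smad3 and Tgfbr3 had nearly the same signal on both arrays. Tgfb2 and Tgfbi were at the floor on both. The 10 genes were chosen with earlier results of these data known, so their counts and median only describe them. The median log2 ratio of the 8 measured genes was 0.70, against 0.00 over all measured genes. It was 0.26 over all 10 genes when 64 linear signal units were added to each value in place of the floor. By probe set, 14 of 27 were measured, 10 with a log2 ratio above 0 and 4 below. Of these 14, 3 were higher by 2-fold or more and 0 lower, while 3.74% of all measured probe sets were higher and 3.08% lower.

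**Figure D1:**
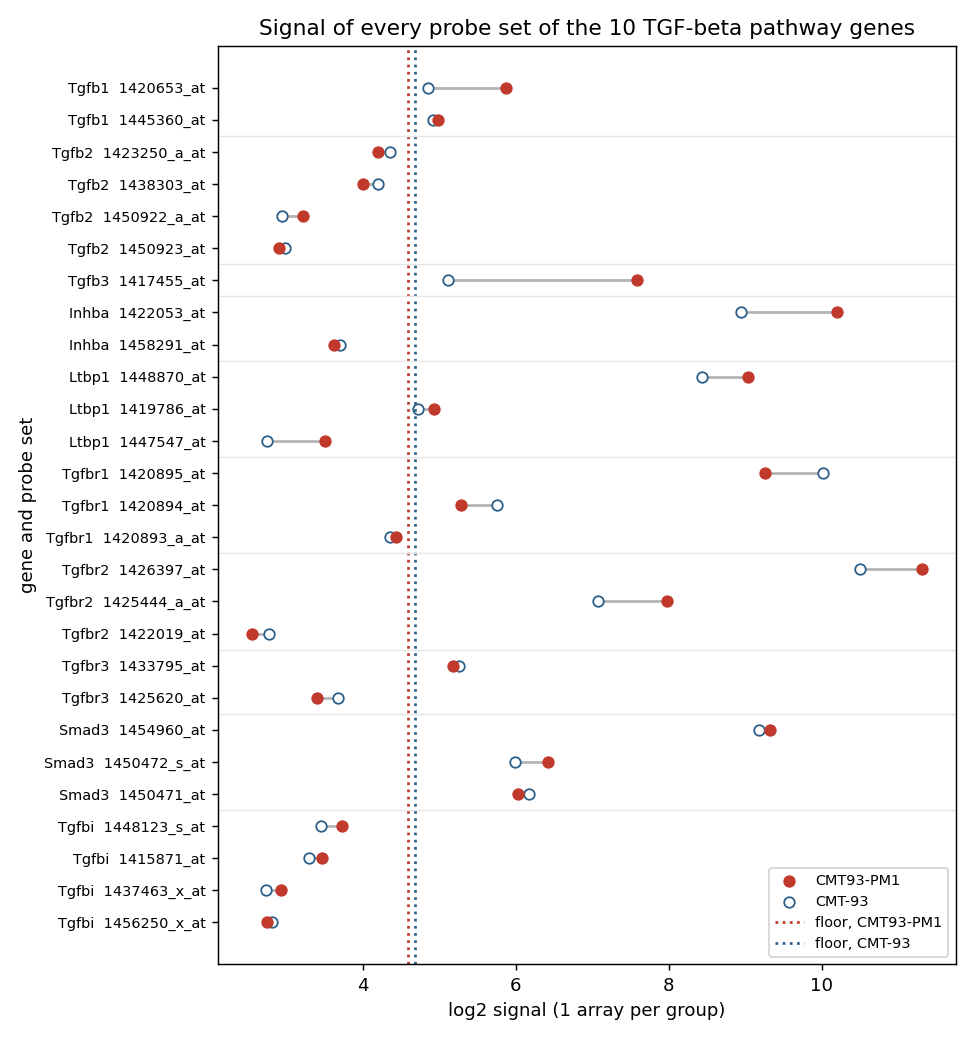
Log2 signal (horizontal axis) of each of the 27 probe sets of the 10 genes, 1 row per probe set, with filled red points for CMT93-PM1, open blue points for CMT-93 and dotted lines at the floor of each array. The widest gap is that of the Tgfb3 probe set, 7.59 in CMT93-PM1 and 5.12 in CMT-93, and all probe sets of Tgfb2 and Tgfbi lie left of both floors.

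Among the ligands, Tgfb3 stood furthest apart. TGF-beta3 is the isoform best known from palate fusion and wound repair. Its probe set 1417455_at, the only one named for the gene, read 7.59 log2 in CMT93-PM1, against 5.12 log2 in CMT-93. On the linear scale these are 192.7 and 34.8 signal units, so that Tgfb3 was close to the floor in CMT-93 and clearly above it in CMT93-PM1. The log2 ratio of 2.47, or 5.54-fold higher, ranked 55th from the highest of the 13332 measured genes. Because the CMT-93 value was so low, the size depended on the treatment of dim signals, with a log2 ratio of 1.41 for the floor at the 60th percentile and of 1.38 for the offset of 64, both still past 2-fold. Genes of like brightness were also the more variable ones: of the 1599 measured genes with a mean signal within 0.5 log2 of that of Tgfb3, 8.69% were at least 2-fold higher, and the SD of their log2 ratios was 0.81.

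Inhba encodes the inhibin beta A subunit, whose dimer is activin A. It was bright in both lines. Probe set 1422053_at read 10.20 log2 in CMT93-PM1, against 8.95 log2 in CMT-93, a log2 ratio of 1.25 or 2.38-fold higher. It ranked 337th from the highest, and its log2 ratio stayed between 1.15 and 1.35 under all 9 processing alternatives run. The other Inhba probe set, 1458291_at, was at the floor on both arrays (3.63 in CMT93-PM1 and 3.71 in CMT-93) and carries no information on the difference.

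Tgfb1, the most widely expressed isoform in most tissues, was dim in both lines. Probe set 1420653_at read 5.87 log2 in CMT93-PM1, against 4.85 log2 in CMT-93, a log2 ratio of 1.02 or 2.03-fold higher. Its other probe set, 1445360_at, read 4.99 in CMT93-PM1 and 4.92 in CMT-93, a log2 ratio of 0.07. The probe sets thus disagree on whether Tgfb1 differed. The log2 ratio of the gene was 0.55 by the median of both and 0.40 with the offset of 64, and at the 60th-percentile floor the gene was not measured. The fourth ligand gene, Tgfb2, was at the floor by all 4 of its probe sets. They lay between 2.91 and 4.20 log2 in CMT93-PM1 and between 2.95 and 4.36 log2 in CMT-93, so no Tgfb2 signal was detectable in either line by these probes.

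RefSeq's promoter table (GRCm38.p6) holds windows for 8 of the 10 genes, 10 windows in all, of which the 250 bases before the start site were read. Those of Tgfb1 and Inhba are shown because both ligand genes passed 2-fold while their windows differ in G and C content and in motif matches. Capitals mark the GC box GGGCGG in the Tgfb1 window (chr7:25686752-25687001, plus strand) and the TATA box TATAAA in the Inhba window (chr13:16011601-16011850, plus strand), with matches sought on both strands.
Tgfb1: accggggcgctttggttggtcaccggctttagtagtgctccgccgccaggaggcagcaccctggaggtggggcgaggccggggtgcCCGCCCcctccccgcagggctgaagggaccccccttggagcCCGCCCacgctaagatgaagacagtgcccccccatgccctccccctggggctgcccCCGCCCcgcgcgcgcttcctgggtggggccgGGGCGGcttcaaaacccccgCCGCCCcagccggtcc
Inhba: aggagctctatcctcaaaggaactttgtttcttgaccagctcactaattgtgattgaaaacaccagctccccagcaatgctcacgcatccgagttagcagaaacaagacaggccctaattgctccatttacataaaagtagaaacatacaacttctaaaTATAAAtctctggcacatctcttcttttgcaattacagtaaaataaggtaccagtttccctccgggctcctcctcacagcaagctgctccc
The Tgfb1 window had 75.2% G and C and held 5 GC boxes, 1 on the plus and 4 on the minus strand, the nearest beginning 16 bases before the start site. The Inhba window had 43.2% G and C and held 1 match to the TATA box letters, beginning 91 bases before the annotated start. GC boxes were present in 32.7% of all 32851 windows of this length and in 4 of the 10 windows of these genes, and TATA boxes in 12.4% and in 2 of 10. The short Smad-binding core CAGAC was in 42.2% of all windows and in 6 of 10. The AP-1 site TGACTCA was in 4.46% and in 0 of 10, and the cyclic AMP response element TGACGTCA in 1.55% and in 1 of 10, that of Ltbp1. None of the capitals overlapped a match of another of these motifs. A match to these letters is a description of the sequence and not a binding site.

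Ltbp1, the latent TGF-beta binding protein that ties the ligand complex to matrix, read 9.03 log2 in CMT93-PM1 and 8.44 log2 in CMT-93 by its bright probe set 1448870_at. The log2 ratio was 0.59, or 1.51-fold higher. A dim probe set, 1419786_at, read 4.93 in CMT93-PM1 and 4.73 in CMT-93, a log2 ratio of 0.20 in the same direction. Probe set 1447547_at was at the floor on both arrays. Ltbp1 therefore stayed below 2-fold by both measured probe sets, with a log2 ratio of 0.39 by their median.

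The receptor genes differed in direction. Tgfbr2, the type II receptor that binds ligand first, read 11.31 log2 in CMT93-PM1 and 10.50 log2 in CMT-93 by probe set 1426397_at, a log2 ratio of 0.81 or 1.75-fold higher. Probe set 1425444_a_at gave a like difference, with 7.98 in CMT93-PM1 and 7.07 in CMT-93, a log2 ratio of 0.91. The remaining Tgfbr2 probe set, 1422019_at, was at the floor on both arrays.

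Tgfbr1, the type I receptor that phosphorylates the Smads, went the other way. Probe set 1420895_at read 9.26 log2 in CMT93-PM1 and 10.02 log2 in CMT-93, a log2 ratio of -0.76 or 1.69-fold lower, and ranked 552nd from the lowest of all measured genes. Probe set 1420894_at read 5.28 in CMT93-PM1 and 5.75 in CMT-93, a log2 ratio of -0.47, and 1420893_a_at was at the floor on both arrays. Neither receptor passed 2-fold, and both measured probe sets of each had the same sign. Their log2 ratios differed by 1.57 (Tgfbr2 minus Tgfbr1), a difference that does not depend on how the arrays are scaled to each other by a constant. Over all processing alternatives the log2 ratio of Tgfbr2 lay between 0.76 and 0.91 and that of Tgfbr1 between -0.84 and -0.61.

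Tgfbr3, or betaglycan, the co-receptor that presents TGF-beta2 in particular, was dim. It read 5.18 log2 in CMT93-PM1 and 5.26 log2 in CMT-93 by probe set 1433795_at, and its other probe set was at the floor. The log2 ratio of -0.08 had no stable sign, being 0.02 after each array was centred on its median and 0.03 after lowess.

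Smad3, the transducer of both TGF-beta and activin, was clearly expressed and nearly equal. Probe set 1454960_at read 9.32 log2 in CMT93-PM1 and 9.18 log2 in CMT-93, a log2 ratio of 0.14. Probe sets 1450472_s_at (6.42 in CMT93-PM1 and 5.99 in CMT-93) and 1450471_at (6.03 in CMT93-PM1 and 6.18 in CMT-93) had log2 ratios of 0.43 and -0.15. This was the only gene of the 5 with several measured probe sets whose probe sets differed in sign. Tgfbi, a secreted matrix protein named for its induction by TGF-beta, was at the floor by all 4 probe sets, which lay between 2.75 and 3.73 log2 in CMT93-PM1 and between 2.74 and 3.45 log2 in CMT-93. A Tgfbi difference between the lines was thus not detectable.

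**Figure D2:**
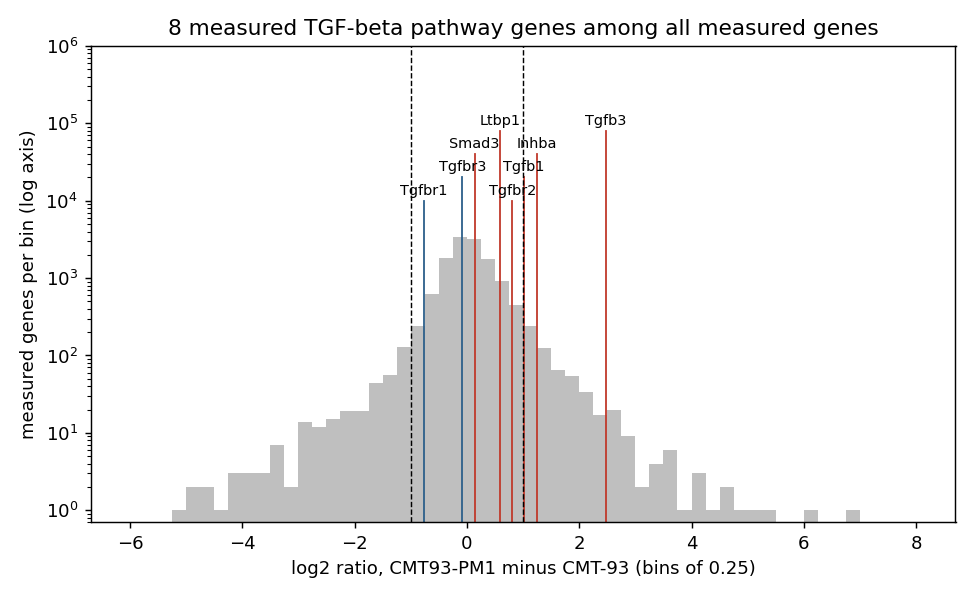
Number of measured genes (vertical log axis) by log2 ratio, CMT93-PM1 minus CMT-93, in bins of 0.25 (grey bars, all 13332 measured genes, bounds included), with red lines at the log2 ratios above 0 and blue lines at those below 0 of the 8 measured TGF-beta pathway genes; line heights only separate the names. Dashed lines mark 2-fold, and Tgfb3 at 2.47, Inhba at 1.25 and Tgfb1 at 1.02 lie to the right of it.

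With a limit of 1.5-fold, chosen after the values were seen, 5 of the 8 genes were higher (Ltbp1 and Tgfbr2 in addition) and 1 was lower (Tgfbr1), where 11.5% of all measured genes were higher and 6.95% lower by that size.  Tgfb3 and Inhba were at least 2-fold higher under each of the 9 processing alternatives, and Tgfb1 under 6 of the 8 in which it was measured.

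**Figure D3:**
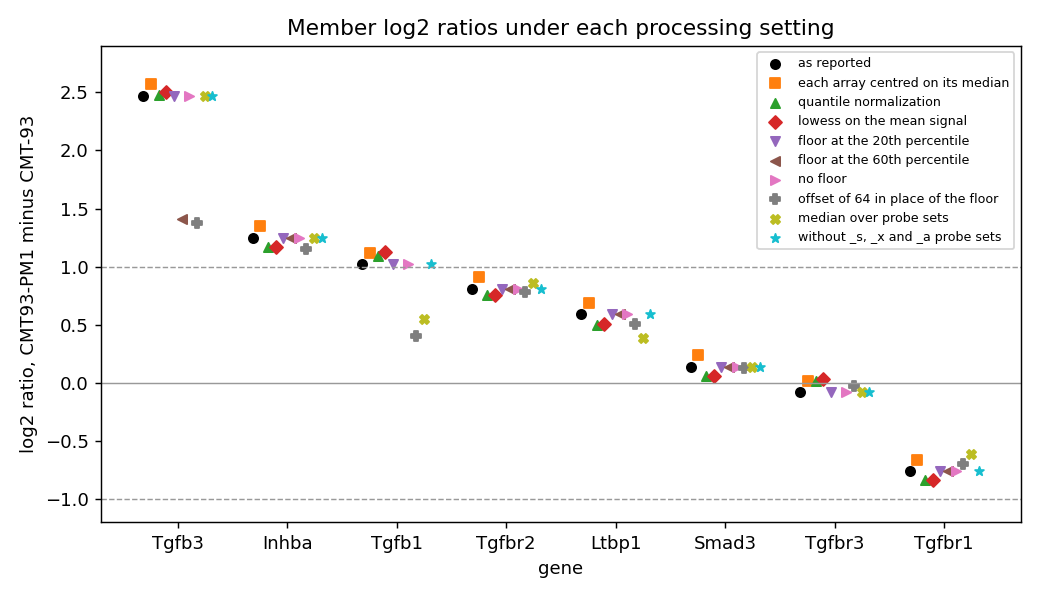
Log2 ratio, CMT93-PM1 minus CMT-93 (vertical axis), of each of the 8 measured genes under the reported processing (black circles) and each of 9 alternatives (coloured markers), with dashed lines at 2-fold. Tgfb3 keeps above 2-fold throughout, at 1.38 to 2.57 over the alternatives, Tgfb1 drops to 0.40 and 0.55 under the offset and the median over probe sets, and Tgfb1 and Tgfbr3 have no marker for the floor at the 60th percentile.

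Neighbouring genes on the chromosome were read for the 3 ligand genes past 2-fold, 10 measured genes on each side in the map order of GRCm38.p6. Tgfb3 lies on chromosome 12, where the median log2 ratio of 454 measured genes was 0.27, with 8.59% of them past 2-fold upward and 0.441% downward. The 20 neighbours of Tgfb3 had a median log2 ratio of 0.33. The nearest, Ttll5 and Ift43, had log2 ratios of -0.23 and 0.43. The only neighbour past 2-fold, named after its value was seen, was the AP-1 gene Fos, at 9.79 log2 in CMT93-PM1 and 7.63 log2 in CMT-93. The part of this chromosome-wide shift in the Tgfb3 difference was not tested.

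The 20 neighbours of Inhba, on chromosome 13, had a median of -0.05, and those of Tgfb1, on chromosome 7, a median of -0.03. Beside Inhba, Gli3 was near the floor of both arrays (4.71 log2 in CMT93-PM1 and 4.61 in CMT-93) and Mplkip had a log2 ratio of 0.10. Beside Tgfb1, B9d2 and Ccdc97 had log2 ratios of -0.81 and 0.38. Of the neighbours of Inhba, 2 were at least 2-fold lower and 0 higher by that size. Both are named after their values were seen. These were the T cell receptor segment Trgv1 (-3.28) and the Wnt inhibitor gene Sfrp4 (-1.07). Of the neighbours of Tgfb1, 0 passed 2-fold in either direction.

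**Figure D4:**
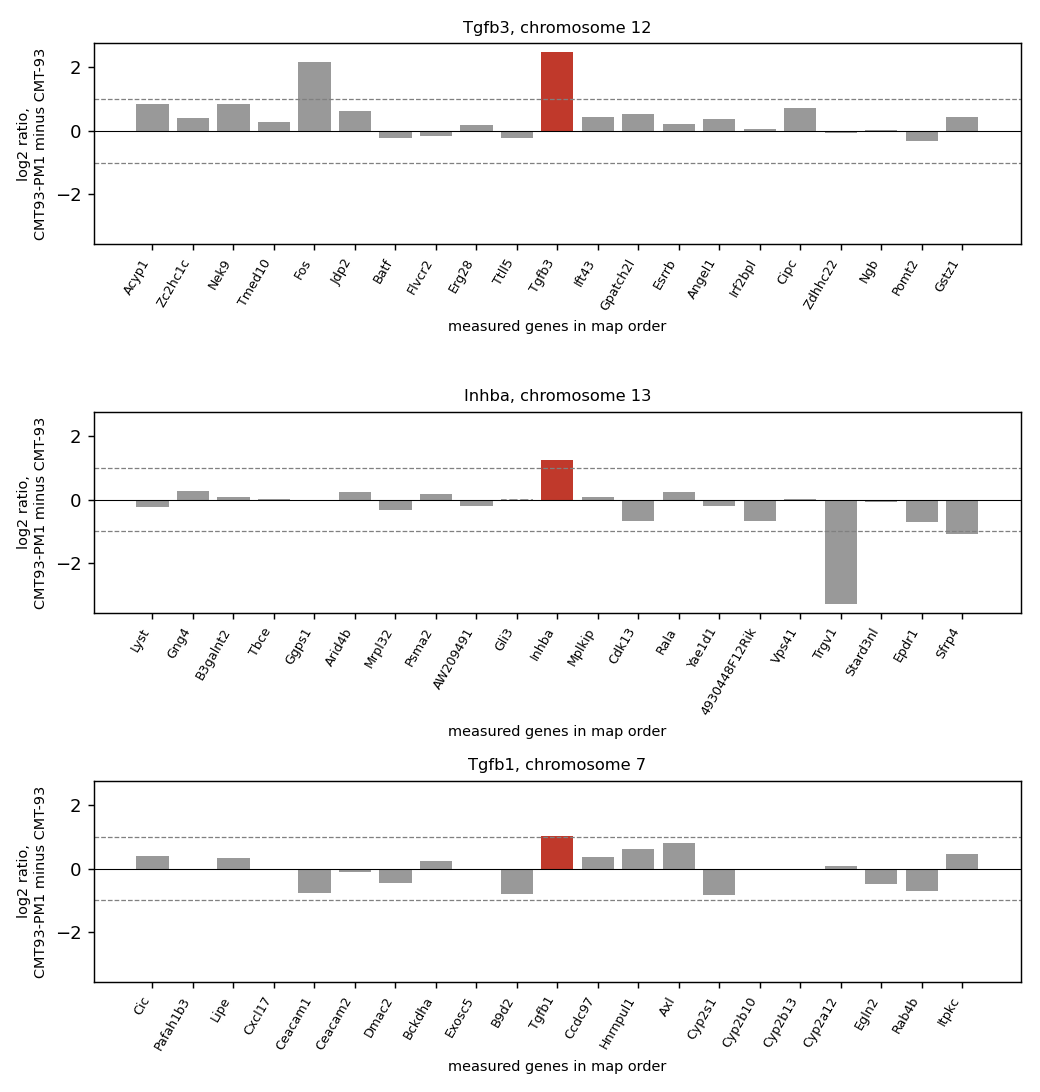
Log2 ratio, CMT93-PM1 minus CMT-93 (vertical axis), of the measured genes around Tgfb3, Inhba and Tgfb1 in map order (horizontal axis, 10 on each side), with the ligand gene in red, dashed lines at 2-fold and hatched bars for bounds. Most bars around Tgfb3 point upward and are below 2-fold, with Fos at 2.16 the exception, whereas bars around Inhba and Tgfb1 point both ways.

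Of 143 other pathway symbols in 7 lists by role, 137 were found on the array and 108 were measured. Both counts include Loxl3, a different gene to which the symbol Loxl2 was matched. Of the 108, 10 were higher in CMT93-PM1 and 4 were lower by 2-fold or more, and the median log2 ratio was 0.04. The counts of this and each list below stand against the 4.42% of all measured genes that were higher and the 2.55% that were lower by that size. Medians of 6 lists lay between -0.09 and 0.10. The immediate and cell cycle targets had a median log2 ratio of 0.49, with 13 of 18 above 0, against 49.2% of all measured genes.

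In the list of activin and nodal ligands, traps and inhibitors, 11 genes were measured, of which 2 were higher and 1 was lower by 2-fold or more, and the median was 0.00. Fst encodes follistatin, which binds activin nearly irreversibly. It read 8.78 log2 in CMT93-PM1 and was at the floor in CMT-93 (3.55), at least 17-fold higher. Its other probe set read 7.75 in CMT93-PM1 and 4.02 in CMT-93, at least 8.34-fold higher. The Fst bound was a log2 ratio of 2.60 for the 60th-percentile floor.

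Fstl3, a follistatin-like activin binder, read 9.36 log2 in CMT93-PM1 and 8.31 in CMT-93, 2.07-fold higher, with log2 ratios of 0.96 after quantile normalization and 0.97 after lowess. Inhbe, the inhibin beta E subunit known from liver, was 3.29-fold lower (4.77 in CMT93-PM1 and 6.49 in CMT-93), but with a log2 ratio of only -0.34 for the floor at the 60th percentile. Inhba and both of its traps were thus higher on the same array, and the log2 ratio bound of Fst was 2.84 above the log2 ratio of Inhba. The size of this gap depends on the floor. At the 60th-percentile floor the Fst bound was 2.60 and the Inhba log2 ratio 1.25, and with the offset of 64 they were 2.73 and 1.15.

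Of the 13 measured latency and activation genes, 0 were 2-fold higher or lower, and their median log2 ratio was 0.10. The brightest, which for every list means by the mean of both arrays, was the activator thrombospondin gene Thbs1, which read 11.78 log2 in CMT93-PM1 and 11.74 in CMT-93. Of 9 other receptors and co-receptors, 1 was higher and 0 were lower, and the median was -0.05. This was the neuropilin gene Nrp2 (2.06-fold, 9.54 in CMT93-PM1 and 8.5 in CMT-93), whose log2 ratio was 0.47 by the median of its probe sets. The brightest of this list, Nrp1, had a log2 ratio of 0.71.

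Of 16 genes of Smad signal transduction and nuclear partners, 2 were higher and 0 were lower, and the median was -0.09. Runx1, a transcription factor that binds Smads, read 8.67 log2 in CMT93-PM1 and 6.74 in CMT-93, 3.81-fold higher. Of its 5 other measured probe sets, 4 were also at least 2-fold higher, up to 6.02-fold, and 1 had a log2 ratio of -0.32. Jun, an AP-1 partner of Smad3, was 2.03-fold higher (10.78 in CMT93-PM1 and 9.76 in CMT-93), with a log2 ratio of 0.95 after quantile normalization or lowess. Smad4, the brightest of the list, was nearly equal at 10.97 in CMT93-PM1 and 10.93 in CMT-93.

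The list headed negative regulators of Smad signalling holds several genes that TGF-beta itself induces. It is not made of inhibitors alone, since it includes the deubiquitinase genes Usp4, Usp11 and Usp15. Of its 19 measured genes, 0 passed 2-fold in either direction and the median was 0.07. The brightest, the receptor-binding immunophilin gene Fkbp1a, had a log2 ratio of -0.12. Smad7, an inhibitory Smad that Smad3 induces, named after its value was seen, read 8.52 log2 in CMT93-PM1 and 8.51 in CMT-93, with a log2 ratio of 0.38 by its other probe set. Smad6, also named after its value was seen, read 6.47 in CMT93-PM1 and 5.68 in CMT-93, a log2 ratio of 0.79.

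Of 22 measured matrix and contractile targets, 2 were higher and 1 was lower by 2-fold or more. Their median log2 ratio was 0.02, and they include Loxl3 (log2 ratio 0.10) in place of Loxl2. Ccn1, a matricellular gene, was 2.62-fold higher by its representative probe set (12.53 log2 in CMT93-PM1 and 11.14 in CMT-93) but had a log2 ratio of 0.23 when probe sets whose suffix marks shared or multiple transcripts were left out. The lysyl hydroxylase gene Plod2, which prepares collagen for cross-linking, was 2.2-fold higher (8.83 in CMT93-PM1 and 7.69 in CMT-93), and 2.73-fold higher by its other probe set, with a log2 ratio of 0.94 for the offset of 64. The metalloproteinase inhibitor gene Timp3 was 15.9-fold lower (4.76 in CMT93-PM1 and 8.75 in CMT-93), with a log2 ratio of -2.60 for the floor at the 60th percentile. Fn1, the fibronectin gene and the brightest of the list, read 12.00 in CMT93-PM1 and 11.77 in CMT-93, while its other probe set had a log2 ratio of -0.56.

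Of the 18 immediate and cell cycle targets, 3 were higher and 2 lower. The growth arrest gene Gadd45b read 11.29 log2 in CMT93-PM1 and 9.45 in CMT-93, 3.58-fold higher, and log2 ratios of 1.89 and 0.49 by its other probe sets. The small GTPase gene Rhob was 3.23-fold higher (11.48 in CMT93-PM1 and 9.79 in CMT-93), and the transcription factor gene Ets1 was 2.39-fold higher (10.39 in CMT93-PM1 and 9.13 in CMT-93), with a log2 ratio of 0.99 by the median of its 4 probe sets. Those lower were Id1 and Id3, helix-loop-helix inhibitors known mainly as targets of bone morphogenetic proteins. Id1 read 8.30 in CMT93-PM1 and 10.10 in CMT-93, 3.48-fold lower, and Id3 read 7.80 in CMT93-PM1 and 9.16 in CMT-93, 2.57-fold lower. Id2, of the same family and named after its value was seen, did not pass 2-fold, with a log2 ratio of -0.32. The brightest of the list, the TGF-beta-stimulated clone gene Tsc22d1, had a log2 ratio of 0.46, and of 1.20 without such probe sets.

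**Figure D5:**
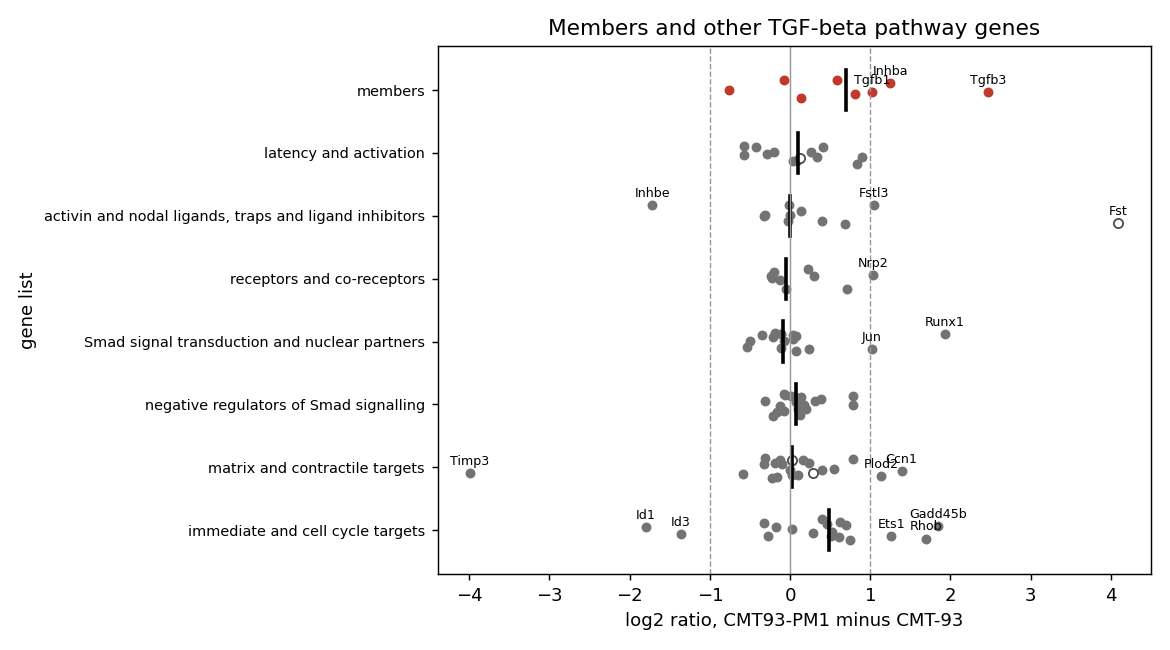
Log2 ratio, CMT93-PM1 minus CMT-93 (horizontal axis), of each measured gene in 8 groups (rows): the 10 chosen genes, called members (red), and 7 lists of other pathway genes (grey), with open circles for bounds, black bars for the median of each row and dashed lines at 2-fold. Named points lie at or past 2-fold, with Fst the highest at a bound of 4.09 and Timp3 the lowest at -3.99.

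CMT93-PM1 came from tumour tissue, and TGF-beta ligands and receptors are also made by stromal cells, so markers of other cell types were read. Several epithelial markers were bright on both arrays, while Cdx2 was dim (5.08 log2 in CMT93-PM1 and 5.24 in CMT-93). Snai2, a transcription factor gene of the immediate and cell cycle targets, was bright too (10.66 in CMT93-PM1 and 10.64 in CMT-93). Cdx2 and Snai2 are named after their values were seen, and whether either line was purely epithelial in state was not tested. Of 12 epithelial markers, 10 were above the floor on each array, among them Krt19 at 12.98 log2 in CMT93-PM1 and 12.72 in CMT-93. The intestinal genes Krt20 and Vil1 were at the floor on both. The summed linear signal of the epithelial markers was 37960 units in CMT93-PM1 and 29390 units in CMT-93, and Cdh17 was 2-fold higher (6.77 log2 in CMT93-PM1 and 5.77 in CMT-93), with a log2 ratio of 0.59 at the 60th-percentile floor.

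Of 12 fibroblast and mural cell markers, 6 were above the floor in CMT93-PM1 and 5 in CMT-93, and 0 passed 2-fold. Their summed linear signal was 350 units in CMT93-PM1 and 402.3 units in CMT-93, with Pdgfra, Lum, Col1a1, Col3a1, Thy1 and Rgs5 at the floor on both arrays and Des the brightest at 6.23 log2 in CMT93-PM1 and 6.78 in CMT-93. Of 9 endothelial markers, 3 were above the floor on each array, and Pecam1, Tie1, Emcn, Cldn5 and Vwf were at the floor on both. Their summed signal was 1171 units in CMT93-PM1 and 1008 units in CMT-93. The sum of each marker list includes signal at the floor, and this sum also holds Cdh5 and Tek, which went opposite ways. Cdh5 read 9.30 log2 in CMT93-PM1 and was at the floor in CMT-93, at least 24.4-fold higher, or a log2 ratio of 2.72 by the median of its probe sets. Tek was at the floor in CMT93-PM1 and read 8.57 log2 in CMT-93, at least 15.8-fold lower, with a log2 ratio of -2.42 at the 60th-percentile floor and -2.57 with the offset. The brightest by the mean of both arrays, Esam, read 8.70 log2 in CMT93-PM1 and 8.93 in CMT-93.

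Of 10 leukocyte and platelet markers, 6 were above the floor on each array, with Ptprc, Adgre1, Itgam and Pf4 at the floor on both. Their summed signal was 678 units in CMT93-PM1 and 476.7 units in CMT-93, with the brightest by the mean of both arrays, Itga2b, at 7.46 log2 in CMT93-PM1 and 7.35 in CMT-93. Cd68 was 3.53-fold higher (7.05 in CMT93-PM1 and 5.23 in CMT-93), with a log2 ratio of 0.87 at the 60th-percentile floor. Csf1r was 2.17-fold higher (7.54 in CMT93-PM1 and 6.42 in CMT-93), with a log2 ratio of 0.78 by the median of its probe sets. Of 10 lung epithelial markers, 6 were above the floor in CMT93-PM1 and 7 in CMT-93, with summed signals of 344.7 units in CMT93-PM1 and 598.7 units in CMT-93. Napsa, the brightest, was 4.14-fold lower (5.69 log2 in CMT93-PM1 and 7.74 in CMT-93), with a log2 ratio of -1.26 with the offset, and Sftpa1, Scgb1a1 and Nkx2-1 were at the floor on both. The part of other cell types in the Tgfb3, Inhba and Tgfb1 differences was not tested, beyond these levels.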

How the data were processed

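Total RNA of 1 culture each of CMT93-PM1 and CMT-93 was hybridized to 1 Affymetrix array each. The deposited values are log2 signals with 2 decimals, the base being inferred from their range (1.89 to 14.28). MAS5 is named with no role, per the submitters' processing notes, and the sources used here do not give any step by which the authors scaled 1 array to the other. Values were used as deposited. Of the 45037 probe sets, 34945 had 1 symbol in the platform annotation, 932 had several and 9160 were not listed. Older symbols were replaced through Entrez identifiers with those of GRCm38.p6.

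The floor of an array was its 40th percentile. Where a gene was at the floor on just 1 array, its ratio is a bound, written "at least N-fold", and a bound on the wrong side of 0 was set to 0. Genes were counted at 2-fold with no test, since there was 1 array per line. Most genes named beyond the 10 follow a fixed rule. It takes up to 5 past 2-fold in each direction and the brightest of each pathway list. Of each marker list it takes the brightest and up to 3 past 2-fold. Nearest measured map neighbours are named for each of the 10 past 2-fold. Outside the rule are genes said to be named after their values were seen, markers at the floor on both arrays, and genes named to describe what a list holds. The members and lists were chosen with earlier results of these data known. The alternatives were median centring, quantile normalization, lowess (span 0.3), floors at the 20th and 60th percentiles, no floor, an offset of 64, the median over probe sets, and omission of probe sets with an _x, _s or _a suffix. The counting step was tested on simulated data, with differences larger than 2-fold set in bright genes. Differences in dim genes or close to 2-fold were not tried. Python 3.11.15, numpy 2.4.6, pandas 2.3.3 and statsmodels 0.14.6 were used.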

Additional observations from a re-analysis of the deposited data

How the results depend on the processing

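No paired analysis was possible because each line had 1 array, and for the same reason no array could be left out. Across the 9 processing alternatives, 2 or 3 of the 10 genes were at least 2-fold higher in CMT93-PM1 and 0 were at least 2-fold lower. With the limit of 1.5-fold, added after the data were seen, 5 were higher and 1 was lower. The median log2 ratio of the measured genes, 0.70 as reported, was 0.39 with a lower floor, the 20th percentile, and 0.43 with no floor, settings that bring in Tgfb2 and Tgfbi, 0.26 with the offset of 64, and 0.47 by the median over probe sets. Other pathway genes past 2-fold numbered 14 as reported, 9 with the offset and 10 to 15 under the other 8 alternatives. The offset also lowered the counts over all genes, to 276 higher and 190 lower, against 589 and 340 as reported. Other pathway genes at least 2-fold higher numbered 10 as reported, 6 with the offset and 6 by the median over probe sets. They numbered 7 after quantile normalization and 7 after lowess. None of the 3 ligand genes or 14 pathway genes past 2-fold changed sign in any alternative in which it was measured. Low signal limits Tgfb1, Tgfb3 in CMT-93 and Tgfbr3, whose values lie within 1 log2 of the floor on at least 1 array, and a single array of each line limits every difference.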
